A study of Mus musculus with 2 samples.

Results

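The 805 strong isolated distal peaks of open chromatin in mouse regulatory T cells were chosen by signal, distance to genes and isolation from 34610 peaks in all. Each peak lay more than 1 kb from every annotated transcription start site (TSS), had no other peak summit within 20 kb, and had a signal of at least 20, where the signal is the authors' enrichment value per peak and the summit is the point of highest enrichment. Regulatory T cells, CD4 cells that depend on the transcription factor Foxp3, hold immune responses in check. They were profiled by ATAC-seq, in which the Tn5 transposase inserts sequencing adapters into accessible DNA. The single group came from a male adult mouse, 4 months old, of the strain Foxp3CreERT2 x Rosa26YFP, a cross with a tamoxifen-inducible Cre at the Foxp3 locus and a YFP reporter at Rosa26. The labels call the sample regulatory T primary cells and trace it to a hematopoietic cell of the bone marrow. The 2 libraries were technical replicates of 1 biological replicate and entered the same pooled peak lists, so no spread between animals could be given, and the lists hold no read counts from which a depth could be taken. Exact 95% intervals (Clopper-Pearson) beside shares cover counting error only, and peaks are not replicates.

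Open chromatin away from promoters is typically found at enhancers, where transcription factors displace nucleosomes, and at sites bound by CTCF, the zinc finger protein that anchors chromatin loops with cohesin. In T cells, accessible distal elements often carry short words bound by ETS factors such as ETS1, by RUNX factors, which regulate Foxp3 and Cd4, and by AP-1, the dimer of JUN and FOS or BATF proteins formed on T cell activation. Enhancers of genes that define a lineage often lie in clusters, whereas an isolated element has no accessible neighbour in the same stretch of DNA.

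Windows with a CTCF consensus match are shown first because CTCF sites are a known class of isolated open chromatin. Each stretch is from the plus strand of GRCm38, named by its nearest protein-coding gene, with the consensus match in capitals. The windows lie at chr8:117224677-117224777, chr3:9947806-9947906 and chr13:109776231-109776331, and the peaks had signals of 31.5, 30.9 and 29.4. The stretch beside Pde4d also holds the ETS-RUNX word described further on, in lower case, shortly before the CTCF match.
Cmip: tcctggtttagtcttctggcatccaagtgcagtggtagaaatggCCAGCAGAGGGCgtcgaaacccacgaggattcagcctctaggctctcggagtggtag
Fabp5: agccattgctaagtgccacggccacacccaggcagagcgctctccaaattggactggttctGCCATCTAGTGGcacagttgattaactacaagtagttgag
Pde4d: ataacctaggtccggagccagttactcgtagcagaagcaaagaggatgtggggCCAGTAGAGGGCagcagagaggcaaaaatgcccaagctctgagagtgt

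The ETS-RUNX word AGGATGTGG, an ETS core that runs into the start of a RUNX word, is shown because pieces of it stood, after plain ETS words, high among the words of 8 bases that were more frequent in the strong isolated distal peaks than in all peaks. The 3 stretches lie at chr3:136611844-136611944, chr12:75283450-75283550 and chr11:20477745-20477845 on the plus strand of GRCm38, and their peaks had signals of 28.2, 28.04 and 27.4. Capitals mark 1 match in each, read on either strand. Ppp3ca encodes a catalytic subunit of calcineurin, the phosphatase that activates NFAT in T cells.
Ppp3ca: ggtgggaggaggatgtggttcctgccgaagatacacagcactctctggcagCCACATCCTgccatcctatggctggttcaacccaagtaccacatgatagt
Rhoj: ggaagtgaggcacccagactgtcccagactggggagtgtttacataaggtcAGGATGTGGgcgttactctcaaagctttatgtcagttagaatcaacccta
Sertad2: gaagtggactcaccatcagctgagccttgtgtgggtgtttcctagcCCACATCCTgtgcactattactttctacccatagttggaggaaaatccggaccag

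The peaks of highest signal are shown because their sequence also occurs elsewhere, as detailed with the copies. The stretches shown lie at chr2:69355549-69355649, chr5:60042935-60043035, chrX:143483010-143483110 and chr16:18533204-18533304. Capitals mark bases that aligned to the mitochondrial genome, here the whole stretch for the peaks beside Abcb11 and G6pd2, and the peaks beside Pak3 and Gnb1l have none.
Abcb11: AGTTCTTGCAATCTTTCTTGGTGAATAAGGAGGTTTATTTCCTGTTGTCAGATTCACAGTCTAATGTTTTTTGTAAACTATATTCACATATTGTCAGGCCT
G6pd2: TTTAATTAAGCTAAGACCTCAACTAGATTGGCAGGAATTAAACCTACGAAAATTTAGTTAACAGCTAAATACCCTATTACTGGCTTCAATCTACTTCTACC
Pak3: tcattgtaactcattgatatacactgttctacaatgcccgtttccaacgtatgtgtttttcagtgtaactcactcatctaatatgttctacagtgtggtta
Gnb1l: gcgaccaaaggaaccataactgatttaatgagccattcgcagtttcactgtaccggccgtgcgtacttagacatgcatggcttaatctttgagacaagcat

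The signal of the 805 peaks ran from 20 to 64.7 with a median of 22.8 (interquartile range 21.2 to 25.2), so most lay close to the minimum. A signal under 25 was given for 587 of them (72.9%), at least 30 for 36 and at least 35 for 7. The peaks just inside the minimum all had a signal of 20, and the 5 just outside it had 19.94, 19.95, 19.96, 19.98 and 19.98. The deposited −log10 p, the strength of evidence for each peak, had a median of 192 and a range of 96.0 to 5756. The peaks were 196 to 1584 bp wide, with a median of 673 bp. In 386 of 805 intervals (48.0%) a single summit was listed, against 43.7% of all peaks, which include promoter peaks. The share was 56.4% in all distal, 53.9% in weaker isolated distal (signal under 20) and 49.6% in strong distal peaks with a neighbour within 20 kb. The values in this paragraph come from the readout that chose the peaks and describe them only.

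The irreproducible discovery rate (IDR) compares peak ranks between 2 input calls. In the authors' deposited table, the median −log10 p of the strong isolated distal peaks was 96.9 in one input and 96.1 in the other, and the ratio between inputs ran from 0.386 to 2.27 with a median of 0.995. The distance to the next summit had a median of 33.9 kb. It exceeded 50 kb for 213 peaks, 100 kb for 74 and 1 Mb for 5, and the most remote summit lay 2532 kb from its neighbour. Isolation depended on the list: 361 of the 805 peaks (44.8%) had another summit within 20 kb in the longer pseudoreplicated list, and 444 had none there either.

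Intergenic summits were the largest class of strong isolated distal peaks, with 407 of 805 (50.6%, 95% interval 47.0 to 54.1%), against 40.5% of all distal peaks. Introns held 369 (45.8%, 42.4 to 49.4%), against 54.0%, and exons 29 (3.60%, 2.43 to 5.13%), against 5.50%. Among strong distal peaks with a neighbour within 20 kb, termed strong clustered distal peaks, 45.7% were intergenic and 47.9% intronic. Among isolated distal peaks with a signal under 20, termed weaker isolated distal peaks, 42.7% were intergenic and 52.3% intronic. The intergenic interval of the strong isolated distal peaks therefore lay above the 41.1 to 44.4% of the weaker isolated peaks and overlapped the 43.4 to 48.0% of the strong clustered peaks. Protein-coding genes held 342 of the summits, noncoding genes alone held 56, and 25 fell in an exon of a protein-coding gene. Repeat-masked sequence held 66 of the summits (8.20%, 6.40 to 10.3%), against 9.93% of all distal peaks and 8.02% of all peaks.

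The nearest protein-coding TSS lay a median of 28.8 kb away. It was within 10 kb for 161 peaks and over 100 kb away for 104, and 389 summits lay downstream of it, in the direction of transcription. The 805 peaks had 754 different nearest protein-coding genes, so few genes were nearest to more than 1. The peak farthest from any TSS lay 312 kb away (chr8:127909609-127910309, nearest coding gene Pard3, a polarity gene), with a signal of 21.6 and a CAGGAAG word. The peak nearest to Nrp1, which encodes the surface receptor neuropilin-1 found on many thymus-derived regulatory T cells, lay 220 kb from any TSS (chr8:128057709-128058441). Its signal was 21.4 and it held an AP-1 match. The peak nearest to Cblb, which encodes an E3 ubiquitin ligase that restrains T cell activation, lay 178 kb from any TSS (chr16:51807187-51808003). Its signal was 27.1, its −log10 p was 685, and it held a RUNX match. The 5 peaks farthest from a TSS also included those nearest to Nxph1 (283 kb) and Cdh20 (169 kb). The sequence of both also occurs elsewhere, with 6 and 4 other copies, and the peak nearest to Nxph1 matched mitochondrial DNA.

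The exonic peaks of highest signal lay in an exon of Dirc2 (chr16:35695965-35696717, signal 29.6), in exons annotated to Habp2 and Nrap (chr19:56320013-56320641, signal 27.8) and in an exon of Dpp4 (chr2:62352028-62352567, signal 27.5). Dpp4 encodes CD26, a surface peptidase of T cells, and its exonic peak held a PU.1-type word. The intronic peaks of highest signal lay in Gnb1l (44.2), in the noncoding gene Gm10069 beside Pzp (31.8) and in Kynu (31.8). Kynu encodes kynureninase, an enzyme of tryptophan breakdown, and its peak lay at chr2:43673636-43673981.

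Words of the ETS type were the most frequent motif matches. The word CAGGAAG, here ETS with A, was found on either strand within 100 bp of the summit in 248 of 805 strong isolated distal peaks (30.8%, 27.6 to 34.1%), against 21.5% of all peaks. It was in 31.3% of strong clustered and 23.0% of weaker isolated distal peaks, and in 6.65% of windows 1 kb to both sides of the strong isolated distal peaks. The interval lay above the 21.6 to 24.4% of the weaker isolated peaks and overlapped the 29.1 to 33.4% of the strong clustered peaks. The classic ETS word CCGGAAG was in 54 of 805 (6.71%, 5.08 to 8.66%), against 8.55% of all peaks and 2.57% of weaker isolated distal peaks. That word was in 25.7% of strong promoter peaks and in 4.82% of strong clustered distal peaks (3.89 to 5.91%). The last interval overlaps that of the strong isolated distal peaks. The word GAGGAAG, preferred by PU.1, was in 123 (15.3%), against 12.9% of all peaks and 14.9% of strong clustered distal peaks. The words differ in their first 2 letters, so 1 stretch of letters counts as 1 of them. At least 1 of these 3 words was in 363 of the 805 windows (45.1%, 41.6 to 48.6%), against 37.8% of all peaks. Strong clustered distal peaks had 43.6%, within that interval. A match describes the letters and does not show that a factor is bound.

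The RUNX and AP-1 words were also more frequent at the summits than in the flanks. The RUNX word TGTGGTT was in 121 of 805 strong isolated distal peaks (15.03%, 12.6 to 17.7%), against 9.07% of all peaks and 3.73% of the flanking windows. Strong clustered and weaker isolated distal peaks both had 12.7%, within that interval. The AP-1 word TGANTCA, with N for any base, was in 137 (17.0%, 14.5 to 19.8%), against 9.62% of all peaks and 6.40% of the flanks. Its share was 14.4% in strong clustered and 11.9% in weaker isolated distal peaks. The interval of the strong isolated distal peaks lay above the 10.8 to 13.0% of the weaker isolated ones. It overlapped the 12.8 to 16.1% of the strong clustered ones. The word AGGATGTGG, added after the leading words were seen, was in 47 (5.84%, 4.32 to 7.69%), against 2.53% of all peaks and 0.311% of the flanks. Strong clustered distal peaks had 4.93%, within that interval. Its end is the start of the RUNX word, so matches of both can share letters, as they do in the stretch beside Ppp3ca shown above.

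**Figure D1:**
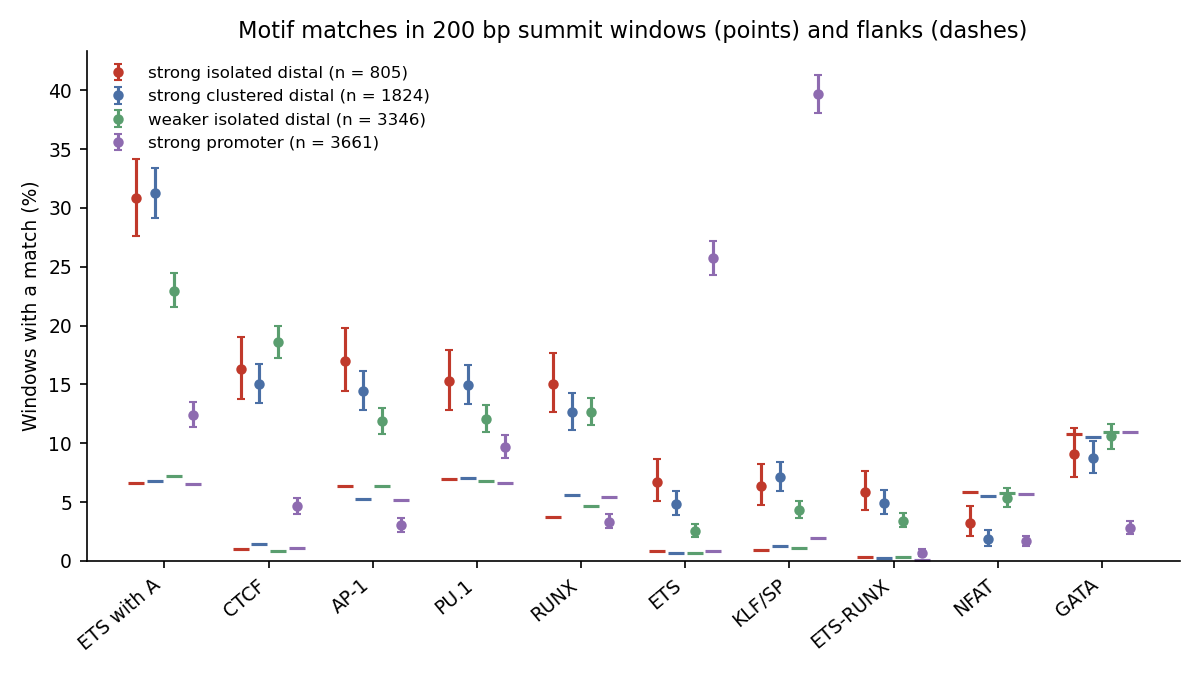
Share of 200 bp summit windows with a motif match (y axis, percent) for 10 motifs (x axis) in strong isolated distal, strong clustered distal, weaker isolated distal and strong promoter peaks; points are shares with exact 95% intervals and dashes are the shares in windows 1 kb to both sides. ETS with A reached 30.8% in strong isolated distal peaks, against 12.4% in strong promoter peaks, whereas KLF/SP reached 6.34% against 39.7%.

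CTCF was a minority class. Its consensus was matched in 131 of 805 strong isolated distal peaks (16.3%, 13.8 to 19.01%), against 10.9% of all peaks and 1.06% of the flanking windows, a ratio of 15.4 to the flanks, or 23.8 with flanks 2 kb away. The share was 15.02% in strong clustered distal peaks and 18.6% in weaker isolated distal peaks (17.3 to 19.9%), so isolated peaks of lower signal had the higher value, with intervals that overlap. Strong promoter peaks had 4.64%. The consensus read backwards, a control of equal base composition, was matched in 1 of 805 (0.124%), against 0.251% of all peaks. It was in 0.110% of all distal and 0.464% of strong promoter peaks. Read backwards it must hold a CpG, which the consensus need not. Its low share in CpG-poor distal windows therefore does not measure how specific the consensus is. A longer and stricter consensus was matched in 81 of the strong isolated distal peaks (10.1%, 8.07 to 12.4%), against 5.46% of all peaks. It was in 8.28% of strong clustered and 10.7% of weaker isolated distal peaks, both within that interval, and in 7.61% of all distal peaks. With 1 permitted mismatch the first consensus gave 38.01%, with 8.51% in the flanks. That looser share was 36.1% in strong clustered, 39.7% in weaker isolated distal and 30.9% in all peaks.

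Width and −log10 p are given by motif as a description, since both come from the readout. The 131 strong isolated distal peaks with a CTCF match had a median width of 618 bp and a median −log10 p of 146, and the 363 with any ETS word had 701 bp and 215. The classes overlapped in part, with 40 peaks in both. An ETS word was in 40 of 131 windows with a CTCF match (30.5%, 22.8 to 39.2%) and in 323 of 674 without one (47.9%, 44.1 to 51.8%). RUNX was in 9 of 131 (6.87%) with CTCF and in 112 of 674 (16.6%) without, and AP-1 was in 9 of 131 with CTCF and in 128 of 674 (18.99%) without. The same split was seen over all distal peaks, where RUNX was in 6.61% of windows with CTCF and 13.1% without, and AP-1 in 5.69% and 14.2%. Among weaker isolated distal peaks an ETS word was in 15.8% of windows with CTCF (13.0 to 18.9%) and in 37.96% of those without. In strong clustered distal peaks it was in 23.0% with CTCF (18.1 to 28.4%), which overlaps the interval of the strong isolated distal peaks, and in 47.3% without. All distal peaks had 18.3% and 42.2%. At least 1 of the ETS, RUNX, AP-1 and CTCF motifs was in 561 of 805 strong isolated distal peaks (69.7%) and none was in 244 (30.3%, 27.2 to 33.6%), against none in 43.5% of all peaks, 36.4% of all distal peaks and 32.5% of strong clustered distal peaks, the last within that interval.

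**Figure D2:**
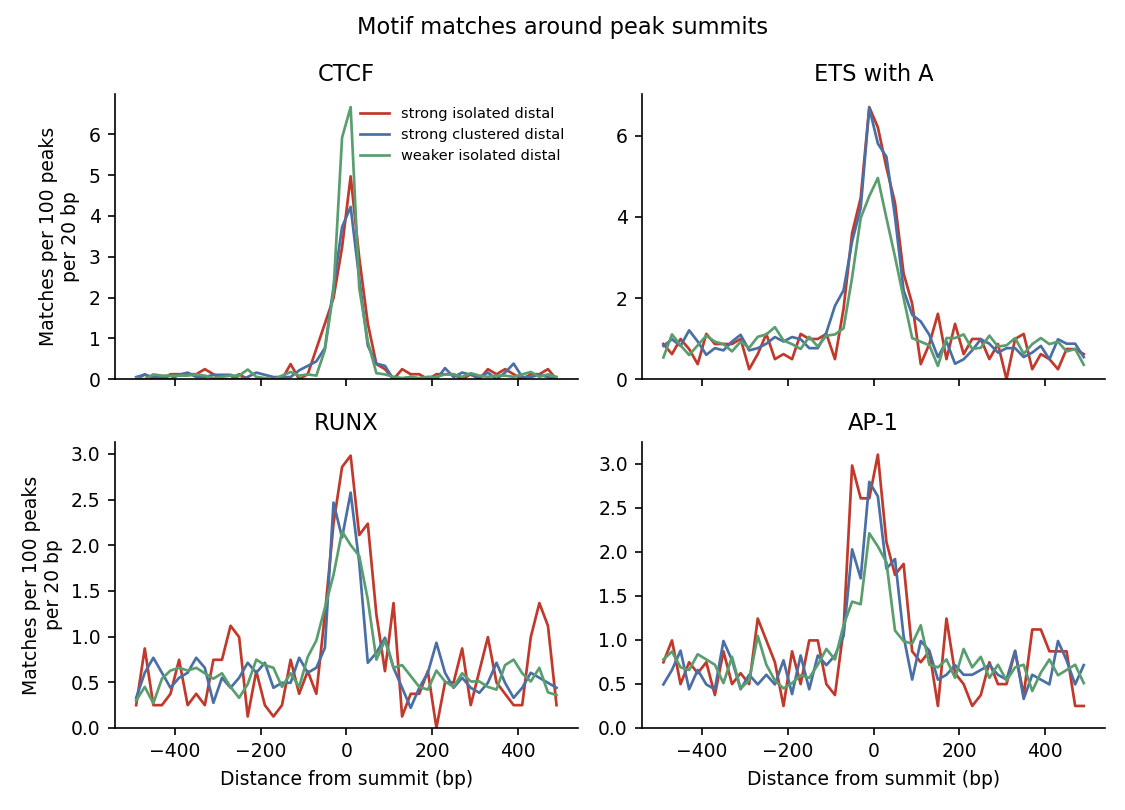
Motif matches per 100 peaks in 20 bp bins (y axis) by distance from the summit in bp (x axis) for strong isolated distal, strong clustered distal and weaker isolated distal peaks; each panel is 1 motif. The matches of all 4 motifs gather within about 100 bp of the summit, most sharply for CTCF.

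Matches lay close to the summits. In the strong isolated distal peaks, 140 CTCF matches within 100 bp of a summit had a median distance of 22.5 bp and 86.4% lay within 50 bp. The median was 13.5 bp in weaker isolated distal peaks. Among the 140 matches, position 3 of the consensus, which may be any base, was A in 80.7% and the base directly after the consensus was A in 56.4%. For ETS with A the median distance in the strong isolated distal peaks was 30.5 bp, for RUNX 28 bp, for AP-1 37 bp and for PU.1 45 bp. The word AGGATGTGG had the shortest, 20 bp, with 85.7% within 50 bp. Of the strong isolated distal peaks with CTCF matches on 1 strand only, 60 had them on the plus strand and 67 on the minus strand. Of 26 neighbouring pairs of such peaks on a chromosome, 9 had matches on the same strand, 9 faced each other and 8 pointed away, at a median separation of 996 kb. Loop anchors bound by CTCF typically face each other, and contacts were not measured here.

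Words of 8 bases were ranked by the share in strong isolated distal peaks minus the share in all peaks, and the first 3 were plain ETS words. AGGAAGTG was in 127 of 805 windows (15.8%), against 9.23% of all peaks and 2.30% of the flanks. ACTTCCTG was in 126 (15.7%), against 9.64% of all peaks, and ACAGGAAG was in 123 (15.3%), against 10.2%. All distal peaks were closer, with AGGAAGTG in 11.5%, ACTTCCTG in 12.3% and ACAGGAAG in 13.3%. AGGATGTG, a piece of the ETS-RUNX word, ranked 5 and was in 64 windows (7.95%), against 4.07% of all peaks. ACATCCTG, which on the other strand overlaps that word with 1 more base before it, ranked 4 and was also in 64, against 3.75%. All distal peaks had AGGATGTG in 5.53% and ACATCCTG in 5.18%. Further down, the AP-1 word ATGACTCA ranked 16 with 42 windows (5.22%), against 2.45% of all peaks and 3.44% of all distal peaks. AAACCACA, which holds the RUNX word on the other strand, ranked 20. The ranking used the same windows, so the gap between shares describes how the words were picked.

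NF-kB was matched in 52 of 805 strong isolated distal peaks (6.46%), against 4.76% of all peaks and 0.994% of the flanks. The KLF/SP word GGGCGGG was in 51 (6.34%), against 17.7% of all peaks and 0.932% of the flanks. The NFAT word TGGAAAA was in 26 (3.23%), against 3.37% of all peaks and 5.84% of the flanks. The GATA word AGATAA was in 73 (9.07%), against 7.75% of all peaks and 10.8% of the flanks. The forkhead word GTAAACA, the class to which Foxp3 belongs, was in 34 (4.22%), against 3.08% of all peaks and 3.11% of the flanks. The interferon regulatory factor word GAAANNGAA was in 74 (9.19%), against 8.43% of all peaks and 12.3% of weaker isolated distal peaks. In all distal peaks NF-kB was in 5.65%, KLF/SP in 5.20% and NFAT in 4.18%. GATA was in 10.4% of all distal peaks, the forkhead word in 3.82% and the interferon regulatory factor word in 10.4%. The median GC content was 49% and the observed over expected CpG ratio 0.272, against 52% and 0.367 in all peaks, which include promoter peaks. In all distal peaks the medians were 48.5% and 0.255.

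Words of other families were sought in the same windows. The E protein word CAGCTG was in 116 of 805 strong isolated distal peaks (14.4%), against 12.4% of all peaks and 9.25% of the flanks, and the ZEB-type word CAGGTG was in 135 (16.8%), against 15.8% and 13.5%. In all distal peaks CAGCTG was in 13.4% and CAGGTG in 17.4%. TCF/LEF was in 39 (4.84%), against 3.46% of all peaks, NF-Y in 33 (4.10%), against 5.56%, and YY1 in 30 (3.73%), against 4.29%. All distal peaks had TCF/LEF in 4.64%, NF-Y in 2.87% and YY1 in 3.64%. CREB/ATF was in 20 (2.48%), against 2.92% of all peaks, ROR in 14 (1.74%), against 1.45%, and T-box in 10 (1.24%), against 0.867%. All distal peaks had CREB/ATF in 1.69%, ROR in 1.75% and T-box in 1.11%. NRF1 was in 5 (0.621%), against 1.82% of all peaks and 0.684% of all distal peaks. The NRF1 and KLF/SP words are common at CpG-rich promoters, which all peaks include. Strong promoter peaks had NRF1 in 3.85% and KLF/SP in 39.7%. STAT and ZNF143 were in 4 each (0.497%), against 0.979% and 0.601% of all peaks, and BATF-IRF and RFX in 1 each (0.124%), against 0.194% and 0.399%. All distal peaks had STAT in 0.985%, ZNF143 in 0.0526%, BATF-IRF in 0.296% and RFX in 0.344%. REST and MEF2 were in 0 of 805 windows, against 0.0144% and 0.468% of all peaks and 0.0143% and 0.569% of all distal peaks. A count of 0 allows a share of up to 0.457% (upper bound of the exact interval).

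**Figure D3:**
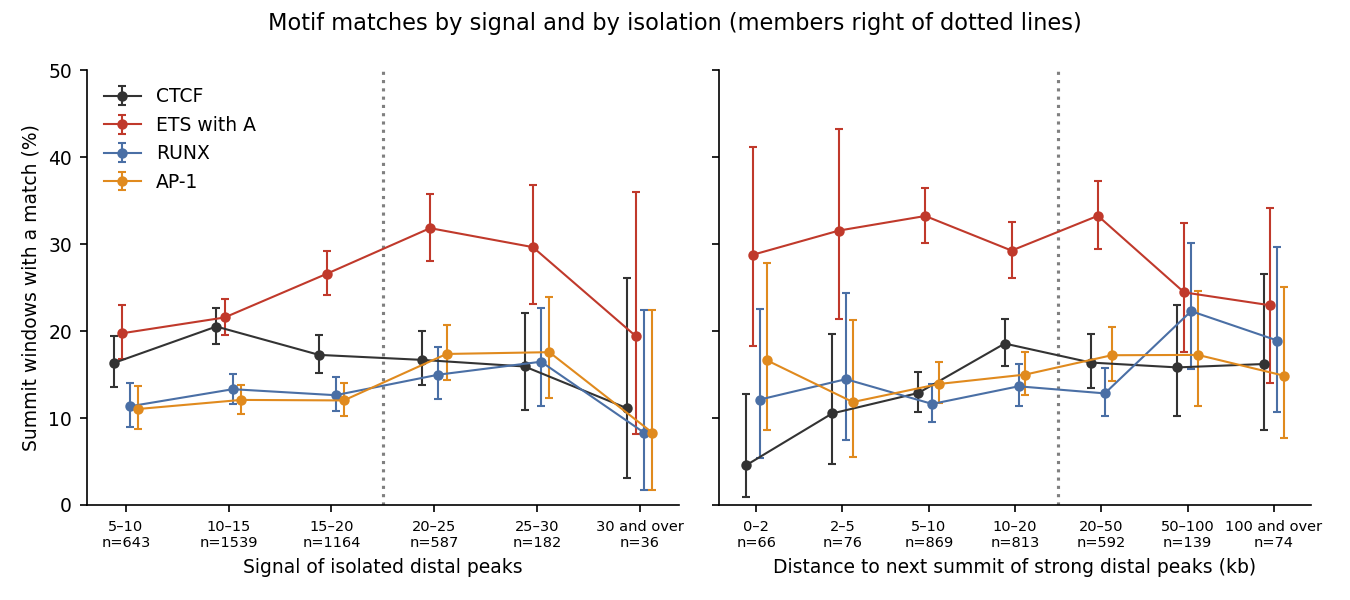
Share of 200 bp summit windows with CTCF, ETS with A, RUNX or AP-1 matches (y axis, percent, exact 95% intervals) by signal among isolated distal peaks (left) and by distance to the next summit among strong distal peaks (right); peaks right of the dotted lines are strong isolated distal peaks. ETS with A was in 31.9% of isolated distal peaks with a signal of 20 to 25 and in 19.8% of those with a signal of 5 to 10.

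Across isolated distal peaks the ETS with A share was 19.8% at a signal of 5 to 10, 21.6% at 10 to 15, 26.6% at 15 to 20, 31.9% at 20 to 25, 29.7% at 25 to 30 and 19.4% at 30 and over, the last with 36 peaks. CTCF had 16.3%, 20.5%, 17.3%, 16.7%, 15.9% and 11.1% in the same bins. Across strong distal peaks, the CTCF share was 4.55% where the next summit lay within 2 kb (66 peaks), 10.5% at 2 to 5 kb, 12.9% at 5 to 10 kb and 18.6% at 10 to 20 kb. It was 16.4%, 15.8% and 16.2% at 20 to 50, 50 to 100 and over 100 kb, with intervals that overlap that of the bin from 10 to 20 kb. The RUNX share was 12.8%, 22.3% and 18.9% in those last 3 bins, with intervals that overlap.

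Most of the strong isolated distal peaks of highest signal had sequence that also occurs elsewhere. A 200 bp window was said to have another copy where at least 100 bp aligned elsewhere in the assembly with at least 90% identity. Of the strong isolated distal peaks 43 had another copy (5.34%, 3.89 to 7.13%), against 3.61% of all strong distal peaks. Matches to the mitochondrial genome were found in 4 (0.497%, 0.136 to 1.27%), against 0.0607% of all peaks. Strong clustered distal peaks had 3 of 1824 (0.164%, 0.0339 to 0.480%) and strong promoter peaks 7 of 3661 (0.191%, 0.0769 to 0.394%), with intervals that overlap that of the strong isolated distal peaks. Another copy or a mitochondrial match was found for 44 of 805 (5.47%, 4.00 to 7.27%), against 3.73% of all strong distal peaks and 54 of 1824 strong clustered distal peaks (2.96%, 2.23 to 3.85%). All 7 strong isolated distal peaks with a signal of at least 35 had a copy or a mitochondrial match, as did 3 of 29 at 30 to 35, 9 of 182 at 25 to 30 and 25 of 587 at 20 to 25. Among strong clustered distal peaks it was 3 of 7, 4 of 51, 14 of 364 and 33 of 1402 in the same bins. How reads that align to several places were treated is not given in the sources used here, and the part of such reads in these signals was not tested.

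**Figure D4:**
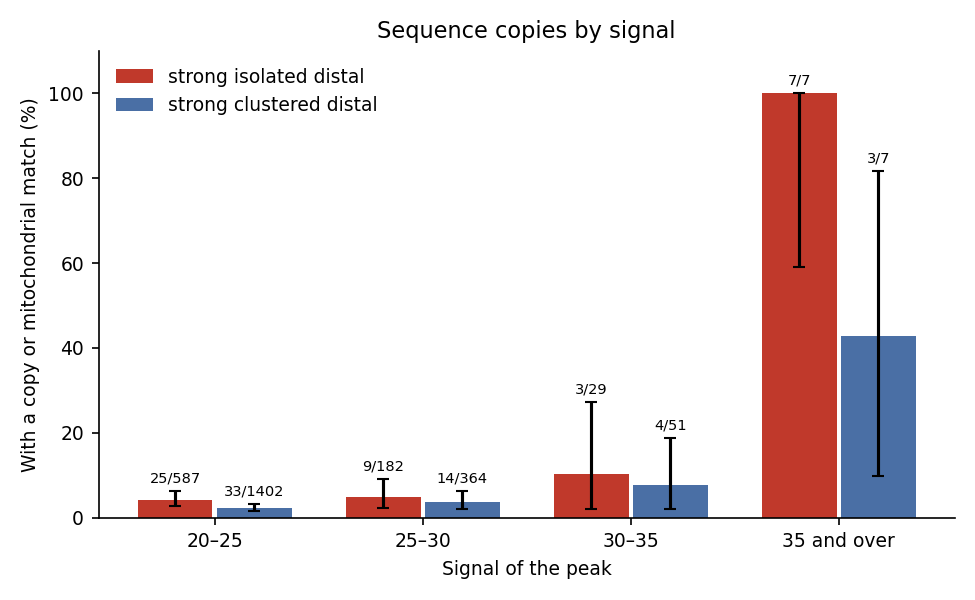
Share of strong isolated distal and strong clustered distal peaks whose 200 bp summit window has another copy or a mitochondrial match (y axis, percent, exact 95% intervals) by signal (x axis); numbers above the bars are counts. All 7 strong isolated distal peaks with a signal of at least 35 fall in this class, against 25 of 587 at 20 to 25.

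Of the peaks that match mitochondrial DNA, the one beside Abcb11, which encodes the bile salt export pump, had the highest signal of all the strong isolated distal peaks, 64.7, with a −log10 p of 4768 (chr2:69355469-69355735). It matched 129 bp of the mitochondrial genome at 100% identity (positions 11514 to 11642). The peak at chr5:60042667-60043155, whose nearest coding gene is G6pd2, had a signal of 47.5 and matched 383 bp at 97.9%. The peak at chr6:9889881-9890223 had a signal of 39.0 and matched 310 bp at 95.5%. The peak at chr12:97061371-97061856, nearest to Galc, had a signal of only 30.6 but the highest −log10 p of the 805, 5756, and matched 365 bp at 99.7%. All 4 summits were isolated by at least 149 kb. Nuclear copies of mitochondrial DNA are common in mammalian genomes, and the mitochondrial genome is not packed in nucleosomes.

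**Figure D5:**
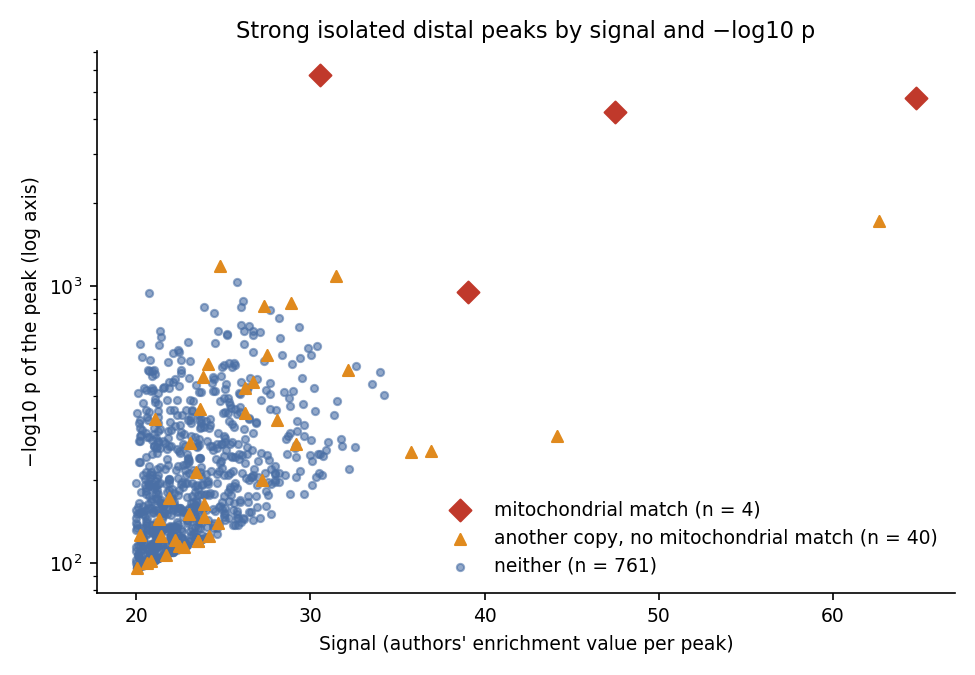
Deposited −log10 p (y axis, log scale) against signal (x axis) of the 805 strong isolated distal peaks; diamonds match the mitochondrial genome, triangles have another copy and circles have neither. The 3 peaks with a −log10 p above 4000 all match the mitochondrial genome, and every peak with a signal of at least 35 is a diamond or a triangle.

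Other peaks of high signal had copies elsewhere. Copies were counted in the assembly alone, so each number is a lower bound for the genome. The peak at chrX:143482934-143483180, nearest to Pak3, had a signal of 62.7 and 6 other copies, of which 5 lay within chr2:98662513-98666445 and 1 at chr6:103649124-103649228. The peak in an intron of Gnb1l (chr16:18533121-18533386, signal 44.2) was identical over 140 bp to chr17:39846352-39846491, where the annotation places a ribosomal RNA gene. The peak at chr1:102628121-102628395, nearest to Cdh20, had a signal of 37.0 and 4 copies, all under other peaks, with signals of 22.4, 30.5, 8.65 and 28.1. The peak at chr9:3258747-3259164, nearest to Alkbh8, had a signal of 35.8, and its copy at chr14:19278113-19278310 was another of the strong isolated distal peaks, with a signal of 20.9. Of the 42 peaks with fewer than 1000 copies, 36 had a copy under another peak of the list, and 17 had one in another strong isolated distal peak. The 3 peaks of highest signal with neither a copy nor a mitochondrial match were at chr11:68939452-68940150, nearest to Arhgef15 (34.2, with an NF-Y word), chr7:30373516-30373995, nearest to Lrfn3 (34.0, with a PU.1-type word) and chr6:3447169-3447802, nearest to Hepacam2 (33.5).

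Of 40 genes of T cell identity, 1 had strong isolated distal peaks, too small a count to set these genes apart from all protein-coding genes. No expression was measured, so the label was checked by promoter peaks: 38 of 40 genes of a T cell and regulatory T cell list had a peak within 1 kb of a TSS, against 51.9% of all protein-coding genes. The counts were 0 of 14 for hepatocyte, 3 of 15 for myeloid and 5 of 15 for neuronal genes, and 13 of 13 for the widely expressed genes of CTCF, cohesin and their partners. A strong isolated distal peak in the gene or 20 kb to either side was found for 1 of those 40 T cell genes (2.5%, 0.0633 to 13.2%), against 2.70% of all protein-coding genes. The gene was Prdm1, which encodes Blimp-1, a transcriptional repressor active in effector regulatory T cells and plasma cells, and it had 2. One lay in an intron 45.2 kb downstream of the gene's 5′ end (chr10:44482961-44483625) with a signal of 26.1, and the other lay 1.04 kb upstream of it (chr10:44529049-44530098) with a signal of 23.0. The upstream summit passed the 1 kb rule narrowly, at the shortest distance to a TSS of all 805 peaks. Neither of the 2 Prdm1 peaks held a CTCF, RUNX, AP-1, CAGGAAG or CCGGAAG word. The 40 T cell genes, with 20 kb to either side, held a median of 8 peaks of any kind, and 0 of them had none. How far the isolation rule affected their count of strong isolated distal peaks was not tested.

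Genes of other cell types had such peaks at counts of 1 each. Of 15 myeloid genes, Mpo, which encodes myeloperoxidase, had 1 at chr11:87808258-87808907, in an intron of the adjacent Lpo, with a signal of 25.9 and a CAGGAAG word. Of 14 hepatocyte genes, Alb, which encodes albumin, had 1 at chr5:90452572-90453178, 7.99 kb upstream of the gene, with a signal of 23.0 and both a RUNX and a CAGGAAG word. Of 15 neuronal genes, Slc17a7, which encodes a vesicular glutamate transporter, had 1 at chr7:45182071-45182604 with a signal of 22.1. None of 13 genes of CTCF, cohesin and their partners had one. These counts are too small to set the lists apart from the 2.70% of all protein-coding genes.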

How the data were processed

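ATAC-seq peak lists of 2 technical libraries of 1 biological replicate, pooled, were used on mm10, per the labels. Each deposited line gives an interval, a summit, a signal value (the authors' enrichment) and a −log10 p. On aligner, caller, versions, depth and reads with several alignments, nothing is given in the sources used here. Lines sharing an interval were reduced to the summit of highest signal, and TSSs came from GENCODE M21 (GRCm38.p6). Motifs were sought on either strand of 200 bp summit windows and of windows 1 kb away, and copies with BLAST+ 2.17.0 (at least 90% identity over 100 bp). The peaks, 29 motifs and 5 gene lists were chosen with earlier results of these data known, and 1 motif was added after the words were seen. Peaks named were the 10 of highest signal, the 3 highest per exon, intron and intergenic class, the 5 farthest from a TSS, those at the threshold and those in gene lists, others chosen after their values were seen. No test was run, because there was 1 group without biological replicates. The functions were tested on simulated data.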

Additional observations from a re-analysis of the deposited data

How the results depend on the processing

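The number of strong isolated distal peaks depended on the thresholds. It was 805 as reported, 1969 with a signal minimum of 15, 218 with 25, 1618 with isolation by 10 kb, 213 with 50 kb, 444 with isolation measured to the pseudoreplicated list, 444 with that list itself and 379 with every line as a peak. With other TSS distances or coding TSSs alone it was 738 to 891, and 761 without copies and mitochondrial matches, a setting chosen after seeing the data. The CTCF share lay between 15.1% and 18.2% under all of these. It was 13.4% in windows of 100 bp, 10.1% with the stricter consensus and 38% with 1 mismatch, and the ratio to flanks was 23.8 with flanks 2 kb away. The intronic share was 39.4% with protein-coding genes only, and the repeat-masked share of summits, 8.20%, was 2.48% where over 50% of the window had to be masked. Of 52 values for single motifs under alternatives, 17 left their interval, all with windows of 400 bp. No paired analysis was possible because there was 1 group. With pooled lists of unknown depth, spread between animals and between libraries could not be given.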

Other observations

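Strong isolated distal peaks made up 27 of the 438 distal peaks of the X chromosome (6.16%, exact 95% interval 4.10 to 8.84%), against 778 of 20481 on the other chromosomes (3.80%, 3.54 to 4.07%). Per Mb of chromosome, however, X had 0.158 of them, the fewest of the chromosomes with any (others 0.240 to 0.448). None lay on the Y chromosome.

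The following genes were chosen after their values were seen. A body with 2 strong isolated distal peaks was found for Tox2, which encodes an HMG-box transcription factor, Tcf7l2, which encodes a transcription factor of Wnt signalling, Smarca2, which encodes the BRM ATPase of SWI/SNF remodelling complexes, and Bcr, Zhx2, Tshr and Snx29 among others. The others were Gtdc1, Iqgap2, Nhsl2, Polk, Sipa1l1 and Gm20388. These bodies spanned from 61.9 kb (Polk) to 4435 kb (Gm20388), and the part of gene length in these counts was not tested. In the ranked list, 96 lines that reached the lowest −log10 IDR of the thresholded list, 1.301, were not in it. They formed 42 intervals, 13 of them over 1 kb from a TSS with a signal of at least 20. One, at chr6:103648978-103649358 with a signal of 45.8 and a −log10 p of 4744, covers the copy of the strong isolated distal peak nearest to Pak3 that aligned at 97.1%.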
